A study of Drosophila melanogaster with 18 samples.

Results

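Bone morphogenetic protein (BMP) signalling in the Drosophila egg chamber was examined at the level of its secreted components. The genes considered were the ligand genes dpp and gbb and the genes of extracellular modulators magu, cv-2, sog, dally and tok, taken by name from the platform's pairing of probe sets with genes. Of these 7 genes 5 had a probe set, with 1 each, so that 5 of the 13966 probe sets other than controls were followed. No probe set was named for sog or dally in the annotation used here, and both are not analysed here. All 5 measured probe sets passed into the fit, since no filter on low values was applied. dpp lies on chromosome arm 2L, tok on arm 3R and gbb, magu and cv-2 on arm 2R of the Release 6 plus ISO1 MT assembly.

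BMP ligands are secreted dimers that bind type I and type II receptors, which then phosphorylate the Smad protein Mad. Dpp is the fly counterpart of vertebrate BMP2 and BMP4, and Gbb belongs with BMP5 to BMP8. Outside the cell their range is set by proteins that bind them. Sog, the fly Chordin, carries and sequesters ligand, the metalloprotease encoded by tok (tolkin, or Tolloid-related) cleaves Sog, and Cv-2 and the glypican Dally hold ligand at the cell surface. Magu, also called Pentagone, is secreted, binds glypicans and widens the Dpp gradient in the wing disc, where BMP signalling represses its gene. In the ovary dpp is made by anterior follicle cells around the nurse cells and the front of the oocyte, and BMP signalling there patterns the anterior eggshell together with the epidermal growth factor receptor (EGFR).

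RNA was measured on Affymetrix arrays in hand-dissected egg chambers of stages 9 to 10 from the ovaries of females aged 6 to 8 days, with 3 arrays in each of 6 groups. The labels give a temperature of 23 °C and 24 h on yeast for all 6 groups. EGFR gain flies carried CY2-GAL4 and UAS-lambda-Top, a constitutively active receptor, and EGFR loss flies CY2-GAL4 and UAS-dnEGFR, a dominant-negative receptor. BMP gain flies carried CY2-GAL4 and UAS-tkv*, an activated type I BMP receptor, and BMP loss flies CY2-GAL4 and UAS-Dad, an inhibitory Smad. The wild type was OreR, in 2 sets of arrays. Wild type A was hybridized in round 1, as were the 3 groups with an EGFR transgene or UAS-tkv*, and wild type B in round 2 beside BMP loss. CY2-GAL4 drives transgenes in follicle cells, and no driver-only flies were analysed here. OreR carries no driver, so in a comparison with wild type the transgene cannot be told apart from the driver and the strain. EGFR gain, EGFR loss and BMP gain share the driver and the round, so the comparisons among them are free of the driver difference. Each of the 3 groups carries its own UAS line, so there the transgene cannot be told apart from the background of that line. Each sample pooled 100 egg chambers, out of 300 collected per genotype and divided into equal groups, so the p-values measure the spread between these pools, which may be technical.

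Values are on the authors' log2 scale. Differences are given on that scale with their standard error (SE) and the Benjamini-Hochberg adjusted p from limma over all 13966 probe sets, and a gene is called where that p is under 0.05. Array medians lay at 4.44 to 4.51 in the first round and at 4.02 to 4.04 in the other, so levels were set against each other only within a round. The number of arrays limits the precision. The driven genes followed their labels by some probe sets only. Egfr was 1.87 ± 0.16 higher (SE, by 1 of its 2 probe sets) in EGFR gain, and tkv 1.81 ± 0.18 higher by 1 of its 2 probe sets in BMP gain. The other probe set stood at -0.12 (adjusted p = 0.88) for Egfr and 0.16 (0.62) for tkv. Dad was 4.39 ± 0.66 higher in BMP loss. Neither Egfr probe set was called in EGFR loss, so the arrays gave no reading of dnEGFR. Of 9 measured follicle cell markers only upd1 lay under the 25th percentile of the arrays in each of the 6 groups, and none of 6 germline markers did, as the labelled tissue holds both cell types. The 3' minus 5' difference of the actin control probe sets was 2.89 in EGFR loss replicate 3 and 0.85 to 1.63 in the other 17 arrays. The same array also had the largest such difference for eIF-4a (3.25), GAPDH (2.68) and 18S rRNA (2.48). It had the lowest weight, 0.38, where limma weighted the arrays by their spread. These limits bear on each EGFR loss result.

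Over the 4 comparisons with wild type 2 of 20 tests of a ligand or modulator gene were called, and both were higher in the perturbed egg chambers. magu rose in BMP gain, where 1 of 5 genes was called against 2.39% of all probe sets, and cv-2 rose in EGFR loss, where 1 of 5 was called against 3.17%. In EGFR gain and in BMP loss 0 of 5 were called by limma, against 2.81% and 2.29% of all probe sets. At an unadjusted p under 0.05 the counts there were 2 and 1 of 5, against 13.7% and 13.4%. With 5 genes these counts describe the genes and do not set them apart from the rest of the array.

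**Figure D1:**
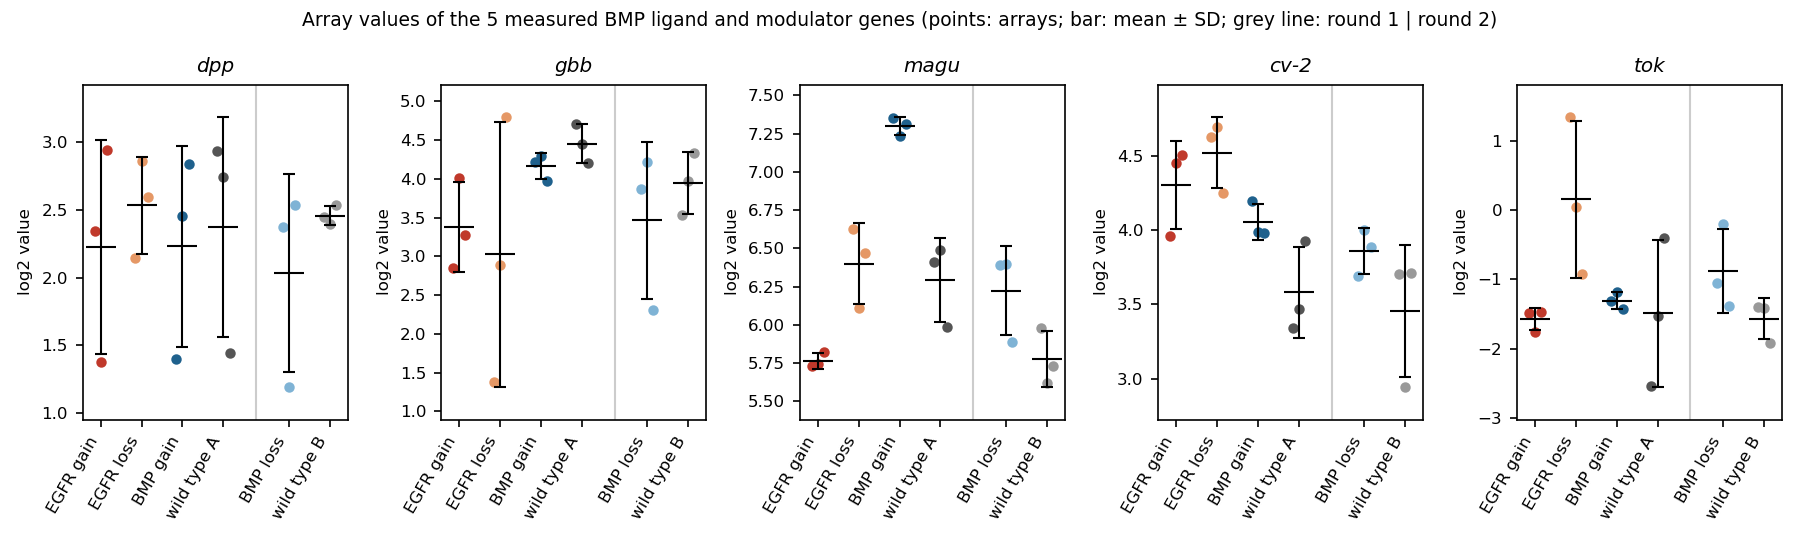
Log2 value (y axis) of dpp, gbb, magu, cv-2 and tok on each of the 18 arrays, by group (x axis); points are arrays, the wide bar is the mean and the whiskers the SD of 3 arrays, and the grey line parts round 1 from round 2. The BMP gain arrays of magu, at 7.24 to 7.35, lie above every other array of that gene, while the gbb arrays of EGFR loss spread from 1.38 to 4.80. The y axes differ between genes.

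magu, the secreted modulator gene, had the clearest response. Its log2 values were 7.35, 7.24 and 7.31 in BMP gain, against 6.41, 6.49 and 5.98 in wild type A. The 3 BMP gain arrays lay close together and above all 3 wild type A arrays, as did those of 10.2% of all probe sets. The difference of 1.01 ± 0.17 (adjusted p = 0.0053) corresponds to a 2.01-fold higher level, with a 95% interval of 1.56-fold to 2.60-fold. It ranked 133rd by p of the 13966 probe sets and 477th by size among rises. In BMP gain the magu probe set stood between the 84.7th and the 86.1st percentile of its arrays, against the 66.5th to the 74.0th percentile in wild type A. The rise was called with any single one of the 6 arrays left out, at 0.85 to 1.11 (adjusted p 0.010 to 0.030). In a fit to these 6 arrays alone the call ended, with the same difference at an adjusted p of 0.084. That fit called 95 of all probe sets, in place of 334. In BMP gain 0 of 5 muscle and 0 of 3 fat body markers were called, and of 6 hemocyte markers 1 was called lower, with a summed linear level of 19.9 to 21.9, against 29.8 to 34.5 in wild type A. Of 9 follicle cell markers 1 was called higher, with a summed linear level of 36213 to 37485, against 34064 to 35637 in wild type A. Of 6 germline markers 1, bam, was called higher and 1 lower, with a summed linear level of 2304 to 2493, against 2141 to 2404. Their part in the magu difference was not tested.

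magu was also compared among the groups that carry the same driver in the same round. Its values were 5.73, 5.74 and 5.82 in EGFR gain and 6.62, 6.11 and 6.47 in EGFR loss. No array of either group reached the lowest BMP gain array, which 9.47% of all probe sets showed for EGFR gain and 10.2% for EGFR loss. EGFR gain minus BMP gain was -1.54 ± 0.17 (adjusted p = 0.00038), a 2.90-fold lower level in EGFR gain, called also in the fit to those 6 arrays alone (0.012) and with any single array left out (highest 0.0033). EGFR loss minus BMP gain was -0.90 ± 0.17 (0.015), a 1.87-fold lower level in EGFR loss. That call ended in the fit to the 6 arrays alone (0.19) and without EGFR loss replicate 2 (0.062), BMP gain replicate 1 (0.061), BMP gain replicate 2 (0.053) or BMP gain replicate 3 (0.055). In each of these 2 comparisons magu was the 1 gene called of 5, against 1.27% and 2.00% of all probe sets.

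Within round 1 the order of magu from high to low was thus BMP gain, EGFR loss, wild type A and EGFR gain. EGFR loss, at 6.40 ± 0.26 (SD, n = 3), did not differ from wild type A, at 6.29 ± 0.27, beyond their spread (0.11 ± 0.17 SE, adjusted p = 0.83). EGFR gain, at 5.76 ± 0.05 (SD), lay below wild type A on all 3 arrays, by 0.53 ± 0.17 (SE), but missed the threshold (adjusted p = 0.15, 95% interval of the log2 difference -0.90 to -0.16). Its arrays did not overlap those of wild type A, and 10.6% of all probe sets were lower in EGFR gain in that way. EGFR gain minus EGFR loss was -0.64 ± 0.17 (0.087) and not called, against 2.10% of all probe sets called there. It passed the threshold without EGFR loss replicate 2 (-0.78, 0.048) and under an intensity trend with robust moderation (0.038).

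In round 2 magu had 6.39, 6.40 and 5.89 in BMP loss, against 5.98, 5.62 and 5.73 in wild type B. The groups overlapped at the lowest BMP loss array and the highest wild type B array. The difference of 0.45 ± 0.17 (adjusted p = 0.26, 95% interval 0.08 to 0.82) was not called. No lower magu level was called in BMP loss, and the interval of the difference lay above 0. The magu response to BMP gain, less its response to BMP loss, was 0.56 ± 0.24 (0.56) and not called, against 0.43% of all probe sets. Its 95% interval, 0.04 to 1.09, is not adjusted for the number of probe sets. So at the adjusted threshold the rise called in BMP gain was not shown to differ from the response in BMP loss.

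**Figure D2:**
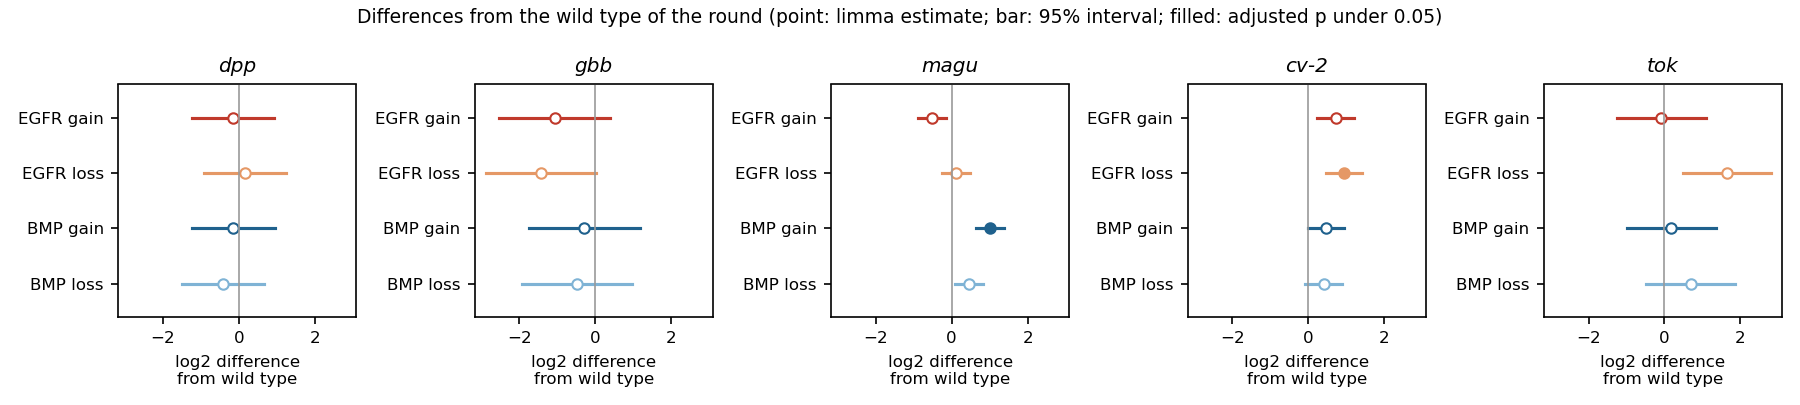
Log2 difference from the wild type of the same round (x axis) for each measured gene in EGFR gain, EGFR loss, BMP gain and BMP loss (y axis); points are limma estimates, bars 95% intervals, and filled points have an adjusted p under 0.05. The filled points are magu in BMP gain, at 1.01, and cv-2 in EGFR loss, at 0.94; the cv-2 estimate is above 0 in each row.

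cv-2, whose product binds BMPs outside the cell and is known from the crossveins of the wing, was higher than wild type in EGFR loss. Its log2 values were 4.63, 4.69 and 4.25 in EGFR loss, against 3.34, 3.47 and 3.93 in wild type A. All 3 EGFR loss arrays lay above the wild type A arrays, as for 10.8% of all probe sets. The difference of 0.94 ± 0.22 (adjusted p = 0.038) corresponds to a 1.92-fold higher level, with a 95% interval of 1.38-fold to 2.69-fold. The call rested on the choice of arrays. It ended without wild type A replicate 1 (0.13), wild type A replicate 2 (0.13), EGFR loss replicate 1 (0.087) or EGFR loss replicate 2 (0.12), and in a fit to the 6 arrays alone (0.23). That fit called 28 of all probe sets, in place of 443. The cv-2 difference itself stayed between 0.82 and 1.12 as single arrays were left out. Leaving out an array of another group, which enters through the shared error, gave adjusted p-values of 0.016 to 0.056. The call ended in that way without any 1 BMP gain array, BMP loss replicate 2 or BMP loss replicate 3. Without EGFR loss replicate 3, the array with the high actin difference, it was 1.08 ± 0.24 (0.039).

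In the other perturbations cv-2 stood on the same side of wild type without being called. It had 3.96, 4.45 and 4.50 in EGFR gain and 4.19, 3.99 and 3.98 in BMP gain, all above the highest wild type A array of 3.93. The differences were 0.73 ± 0.22 in EGFR gain (adjusted p = 0.13, 95% interval 0.24 to 1.21) and 0.48 ± 0.22 in BMP gain (0.45, -0.01 to 0.96). Against wild type A 10.7% of all probe sets were higher without overlap in EGFR gain and 10.2% in BMP gain. In BMP loss it had 3.69, 4.0 and 3.89, against 3.71, 2.94 and 3.71 in wild type B, a difference of 0.41 ± 0.22 (0.48) with overlapping arrays. The mean was thus higher in each of the 4 perturbations than in the wild type of its round, which 16.0% of all probe sets showed. EGFR gain, EGFR loss and BMP gain share wild type A, so those signs are not independent.

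Among the groups with the same driver in round 1 cv-2 was not called in any pair. EGFR gain minus EGFR loss was -0.22 ± 0.22 (adjusted p = 0.74, 95% interval -0.70 to 0.27). EGFR gain minus BMP gain was 0.25 ± 0.22 (0.77, -0.23 to 0.73). EGFR loss minus BMP gain was 0.47 ± 0.22 (0.34, -0.02 to 0.95), with EGFR loss arrays above the BMP gain arrays without overlap, as in 9.90% of all probe sets. The intervals leave room for differences of up to about the size seen against wild type, so equal levels in the 3 groups were not shown. For the rise of cv-2 against OreR the EGFR transgene, the driver and the strain cannot be told apart.

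**Figure D3:**
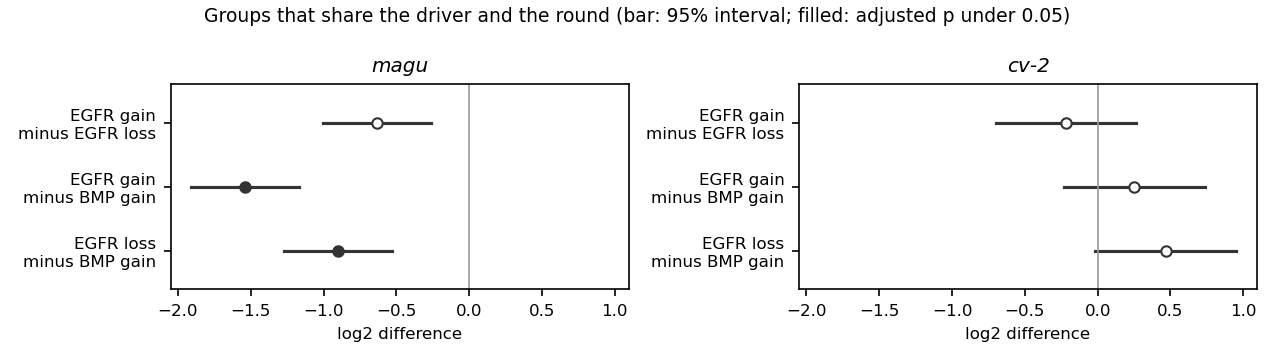
Log2 differences (x axis) of magu and cv-2 between pairs of the 3 groups that share the CY2-GAL4 driver and round 1 (y axis); points are limma estimates, bars 95% intervals, and filled points have an adjusted p under 0.05. Both magu comparisons with BMP gain, at -1.54 and -0.90, are filled, while none of the 3 cv-2 pairs is.

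Markers of other tissues, of follicle cells and of the germline moved with EGFR loss as well. Of 5 measured muscle markers 2 were called higher there, and their summed level (log2 values turned back to the linear scale) was 192 to 272 over the EGFR loss arrays, against 103 to 155 in wild type A. Of 3 measured fat body markers 2 were called higher, with a summed level of 102 to 147, against 42.0 to 70.2 in wild type A. Of 6 hemocyte markers none was called higher and 1 lower, and Hml, NimC1, Sr-CI and eater lay under the 25th percentile in both groups. Of 9 measured follicle cell markers 3 were called lower in EGFR loss and none higher, with a summed level of 27872 to 29546, against 34064 to 35637 in wild type A. Of 6 measured germline markers 2 were called lower and none higher, with a summed level of 1582 to 1882, against 2141 to 2404 in wild type A. The part of these cell types in the cv-2 difference was not tested. Less RNA of a gene per cell and fewer cells that express it cannot be told apart in these whole egg chambers.

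The ligand gene dpp gave dim and uneven signals and no call in any of the 8 comparisons. Its values ran from 1.19 to 2.94 over the 18 arrays, which is between the 18.3rd and the 35.0th percentile of an array, and its groups overlapped in each of the 4 comparisons with wild type. The log2 difference was -0.15 ± 0.50 in EGFR gain (adjusted p = 0.95), 0.16 ± 0.50 in EGFR loss (0.92), -0.14 ± 0.50 in BMP gain (0.97) and -0.42 ± 0.50 in BMP loss (0.80). The 95% intervals of the first 3 reached to about 1 log2 unit on either side of wild type, from -1.23 to 0.93 in EGFR gain, -0.93 to 1.24 in EGFR loss and -1.23 to 0.94 in BMP gain. Changes of dpp smaller than about that size could therefore not be told from 0 at this spread. These intervals are not adjusted for the number of probe sets, so a call would need a larger change. The lowest array was at 1.38 in EGFR gain, 1.40 in BMP gain, 1.45 in wild type A and 1.19 in BMP loss, with the other arrays of these groups at 2.35 or above. Leaving out single arrays turned the sign of the difference in EGFR gain, EGFR loss and BMP gain.

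gbb, the gene of the second ligand, had lower means than wild type A in both EGFR perturbations, without a call. Its values were 2.85, 4.01 and 3.28 in EGFR gain and 1.38, 2.89 and 4.80 in EGFR loss, against 4.71, 4.45 and 4.21 in wild type A. The EGFR gain arrays lay below all wild type A arrays, as did those of 10.6% of all probe sets. EGFR loss held both the lowest and the highest gbb value of the round. EGFR gain minus wild type A was -1.07 ± 0.68 (adjusted p = 0.55) and EGFR loss minus wild type A -1.43 ± 0.68 (0.31). Without EGFR loss replicate 3, which held the 4.80 and the high actin difference, the EGFR loss difference was -2.32 ± 0.55 and called (0.047). In the 6 fits with 1 array left out it ran from -2.32 to -0.61, and it was called in no other.

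In the BMP perturbations gbb stayed nearer to wild type. It had 4.22, 4.30 and 3.98 in BMP gain, a difference of -0.29 ± 0.68 from wild type A (adjusted p = 0.95), and 3.86, 4.22 and 2.31 in BMP loss, against 3.53, 3.97 and 4.34 in wild type B (-0.48 ± 0.68, 0.84). The pooled SD of gbb over the 6 groups, 0.87, was wider than that of 83.7% of probe sets, and its SD was 1.71 in EGFR loss, against 0.17 in BMP gain. The shared error of the fit thus draws largely on EGFR loss, and the intervals, -1.75 to 1.17 in BMP gain and -1.94 to 0.98 in BMP loss, are wide.

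tok, the gene of the Tolloid-related protease, was near the bottom of the scale on most arrays. Its values lay between the 0.0644th and the 7.22nd percentile of the array in the groups other than EGFR loss, and between the 1.29th and the 17.9th percentile in EGFR loss. It had 1.34, 0.04 and -0.92 in EGFR loss, against -2.53, -1.53 and -0.41 in wild type A. The lowest EGFR loss array lay under the highest wild type A array, so the groups overlapped. The difference of 1.64 ± 0.54 was not called (adjusted p = 0.13), nor were EGFR gain minus EGFR loss at -1.73 ± 0.54 (0.15) or EGFR loss minus BMP gain at 1.46 ± 0.54 (0.21). Without EGFR loss replicate 3, which held the -0.92 and the high actin difference, the difference from wild type A was 2.18 ± 0.53 (0.052). In the 6 fits with 1 array left out it ran from 1.05 to 2.19 and was called in none. The EGFR loss arrays lay above those of EGFR gain and BMP gain, as for 8.7% and 9.9% of all probe sets. The size of such differences is uncertain because it depends on the authors' handling of background at this brightness. In the other comparisons with wild type tok stood at -0.08 in EGFR gain, 0.18 in BMP gain and 0.69 in BMP loss, with adjusted p-values of 0.66 to 0.98. The BMP loss arrays lay above those of wild type B, as for 10.4% of all probe sets.

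The genes most like magu and cv-2 over the arrays were found among 5747 and 5748 brighter genes, by Pearson's r over the 18 arrays of the log2 value minus the wild type mean of the round. These arrays share controls and groups, and the values are a description. The genes were picked on the same arrays that give their differences from wild type. Their calls, for magu and for cv-2, are therefore not independent of that choice. For magu they were mew (r = 0.90), which encodes the integrin subunit alpha PS1, CG13101 (0.87) and bam (0.86), a germline differentiation gene. In BMP gain bam differed from wild type A by 2.05 and CG13101 by 1.27, both called (adjusted p 1.7e-06 and 0.0018), and mew by 0.51, not called (0.066). In EGFR gain bam stood at -0.81 (0.0045) and mew at -0.58 (0.032), both lower and called, beside the uncalled -0.53 of magu. In BMP loss CG13101 was also higher, by 1.03 (0.0091), while bam, at -0.07 (0.89), and mew, at 0.27 (0.40), were not called.

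For cv-2 the most similar genes were CG7789 (r = 0.86), Sp7 (0.82), which encodes a serine protease of the melanization cascade, and EMC6 (0.82). CG7789 was called higher in EGFR gain, EGFR loss and BMP gain, by 0.50, 0.65 and 0.59 (adjusted p 0.025, 0.0051 and 0.0081). Sp7 was called higher in EGFR gain and EGFR loss, by 0.58 and 1.24 (0.015 and 6.6e-05). EMC6 was not called in any of the comparisons with wild type, where it stood between 0.19 and 0.30.

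The rest of the pathway was read from 35 listed genes, of which 29 had a probe set. In EGFR gain none of the 29 was called by limma, against 2.81% of all probe sets, with a median difference of 0.13. At an unadjusted p under 0.05 it was 6 of the 29, against 13.7% of all probe sets. In EGFR loss 1 was called higher and 1 lower, 6.90% of the 29 against 3.17% of all probe sets, with a median of -0.02. In BMP gain 1 was called lower, 3.45% against 2.39%, with a median of 0.09. In BMP loss 1 was called higher and 1 lower, 6.90% against 2.29%, with a median of -0.04. The median over all probe sets was between -0.004 and 0.002 in those 4 comparisons. The gene called higher in BMP loss is the transgene Dad itself.

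**Figure D4:**
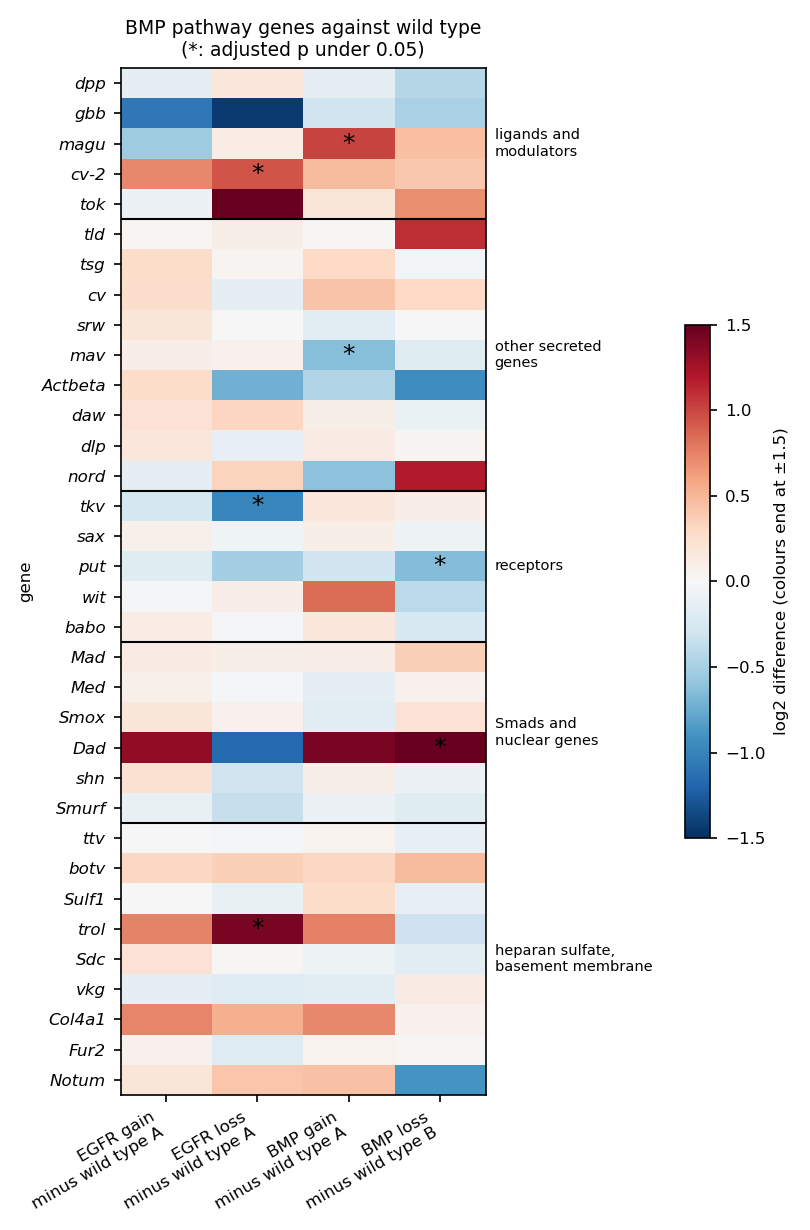
Log2 difference from the wild type of the round (colour) for the 5 ligand and modulator genes and 29 other BMP pathway genes (rows) in the 4 perturbations (columns), by the brightest probe set of each gene; stars mark an adjusted p under 0.05 and colours end at 1.5 in either direction. Stars stand at magu and mav in BMP gain, cv-2, tkv and trol in EGFR loss, and put and Dad in BMP loss.

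Among 9 other secreted genes mav, which encodes the TGF-beta family ligand Maverick, was the 1 called. It fell in BMP gain, with values of 6.24, 5.65 and 5.87, against 6.59, 6.54 and 6.56 in wild type A. All BMP gain arrays were lower, as for 10.3% of all probe sets, and the difference was -0.64 ± 0.12 (adjusted p = 0.0095). This SE comes from the error shared by the 6 groups, while the SD of mav was 0.30 in BMP gain and 0.03 in wild type A. mav was also higher in EGFR gain than in BMP gain, by 0.75 ± 0.12 (0.0071), and in EGFR loss than in BMP gain, by 0.70 ± 0.12 (0.0080). All 3 calls held with any single array left out (highest 0.042) and ended in fits to the 6 arrays alone (0.22, 0.32 and 0.34). So in BMP gain the called secreted genes were magu, higher, and mav, lower, each also against both EGFR groups. tld, which encodes the Sog protease Tolloid, stood at 1.11 ± 0.43 in BMP loss (0.26) and between 0.02 and 0.09 in the other perturbations. It was dim, at 1.97 ± 1.01 (SD) in BMP loss against 0.85 ± 0.73 in wild type B, with overlapping arrays. By its brighter probe set nord stood at 1.19 ± 0.62 (SE) in BMP loss (0.44), also with overlapping arrays. tsg, cv, srw, Actbeta, daw, dlp and nord were not called in any comparison.

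Of 5 receptor genes tkv, a type I BMP receptor, fell in EGFR loss by its brighter probe set, to 6.41 ± 0.12 (SD), against 7.39 ± 0.07 in wild type A (-0.98 ± 0.10 SE, adjusted p = 9.6e-05). The call ended in the fit to those 6 arrays alone (0.065). The other tkv probe set stood at -0.40 ± 0.18 there (0.27) and was not called, so the called fall rests on 1 of 2 probe sets. Its EGFR loss arrays lay below wild type A without overlap, as for 10.7% of all probe sets. By the brighter probe set tkv was 0.71 ± 0.10 higher in EGFR gain than in EGFR loss (0.0015), at -1.14 ± 0.10 in EGFR loss minus BMP gain (2.3e-05) and at -0.43 ± 0.10 in EGFR gain minus BMP gain (0.049). The other probe set gave 0.29 ± 0.18 (0.53, not called, arrays overlapping), -2.21 ± 0.18 (1.5e-05) and -1.92 ± 0.18 (5.6e-05) in these comparisons. It is the one that was 1.81 higher in BMP gain, whose transgene is tkv, while the brighter one stood at 0.16 there (0.62). By the brighter probe set the EGFR gain against BMP gain call ended without any array of these groups other than EGFR gain replicate 2 (highest 0.19), and all 3 calls ended in fits to the 6 arrays alone (0.23, 0.069 and 0.38). put, a type II receptor gene, fell in BMP loss by 0.65 ± 0.14 (0.025). The put call ended in the fit to these 6 arrays alone (0.093). It also ended without any array of these groups other than BMP loss replicate 2 (highest 0.097). Of 6 Smad and nuclear genes Dad was called in BMP loss, where it is driven, and shn, a zinc finger cofactor of Mad, was 0.52 ± 0.10 higher in EGFR gain than in EGFR loss (0.012). The shn call ended without EGFR gain replicate 1, EGFR gain replicate 3 or EGFR loss replicate 2 (highest 0.056) and in the fit to those 6 arrays alone (0.36). Dad, a target gene of BMP signalling that feeds back on it, had 4.14, 4.23 and 4.19 in BMP gain and 4.18, 3.89 and 4.20 in EGFR gain, against 2.75, 2.75 and 2.78 in wild type A. Its arrays in both groups lay above wild type A, as for 10.2% of all probe sets in BMP gain and 10.7% in EGFR gain. The Dad differences of 1.43 ± 0.66 (0.44) and 1.33 ± 0.66 (0.41) were not called. Its EGFR loss arrays, at -0.77, 2.54 and 3.01, widen the shared error.

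Of 9 genes listed under heparan sulfate and basement membrane trol was called. trol encodes the heparan sulfate proteoglycan Perlecan, and it rose in EGFR loss to 4.75, 5.81 and 5.76, against 4.13, 3.83 and 4.09 in wild type A. The groups did not overlap, with 10.8% of all probe sets higher in that way, and the difference was 1.42 ± 0.24 (adjusted p = 0.0061). This SE too comes from the shared error, while the SD of trol was 0.60 in EGFR loss and 0.16 in wild type A. The trol difference stood at 0.74 ± 0.24 in EGFR gain (0.15), 0.76 ± 0.24 in BMP gain (0.16) and -0.31 ± 0.24 in BMP loss (0.67). In EGFR gain and BMP gain its arrays lay above wild type A, as for 10.7% and 10.2% of all probe sets. The call in EGFR loss held with any single array left out (highest 0.032) and ended in the fit to those 6 arrays alone (0.23). These values are from the brighter of 2 trol probe sets. The other, a dim one at 0.77 ± 0.19 in EGFR loss, against 0.63 ± 0.40 in wild type A (SD, n = 3 each), stood at 0.14 ± 0.45 (SE, adjusted p = 0.92) with overlapping arrays and was not called. The part of the muscle, fat body, follicle cell and germline markers, given above for the same group, in the tkv and trol differences was not tested.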

How the data were processed

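RNA of 18 samples was hybridized in 2 rounds. The deposited table holds log2 values of 14010 probe sets with 1 column per array, made by the authors with the affy package, per the submitters' processing notes. Sources used here give neither its version nor the background correction and summary method. The log2 base was read from the highest value, 13.3. Array quartiles lay close together within a round, so no further normalization was applied. No 2 arrays were identical.

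Groups came from sample titles. Probe sets took their gene from the platform annotation, with symbols updated through the Release 6 plus ISO1 MT table. Where a gene had several, the one with the highest mean stood for it. Leaving out 44 controls, 13966 probe sets entered a model of 6 group means in limma 3.58.1 (R 4.3.3; 12 residual degrees of freedom, prior 1.31), and 8 contrasts were called at an adjusted p under 0.05. The members, gene lists and markers were chosen with earlier results of these data known. Genes named are all members, the driven genes, called list genes, uncalled list genes as values only, and the 3 genes most like each called member. Alternatives were array weights, fits to the compared groups alone, a trend of variance on intensity with robust moderation, a filter at the 25th percentile of means, quantile normalization, median centring, a replicate block and single arrays left out. No sequences are shown, as the sources used here hold none.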

Additional observations from a re-analysis of the deposited data

How the results depend on the processing

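Over the 5 measured genes and 8 comparisons, 266 of 272 differences under alternatives other than leaving out arrays kept their sign and side of the threshold, 4 lost a call, 1 gained one and 1 changed sign, dpp in EGFR gain minus BMP gain at 0.016 with array weights. In fits to the compared groups alone 0 of 5 genes were called in EGFR loss against wild type A, 0 in BMP gain against wild type A and 0 in EGFR loss against BMP gain, in place of 1 each. Of all 13966 probe sets these fits called 28, 95 and 17, in place of 443, 334 and 279. A call lost in such a fit is therefore not particular to these genes. An intensity trend with robust moderation called 1 in EGFR gain against EGFR loss in place of 0. With single arrays left out the counts ran from 0 to 2 in EGFR loss against wild type A, from 0 to 1 in EGFR gain against EGFR loss and from 0 to 1 in EGFR loss against BMP gain. The cause was not tested, beyond the fewer arrays of such fits.

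Leaving out single arrays turned the sign of uncalled differences only. For dpp they ran from -0.61 to 0.27 in EGFR gain, -0.31 to 0.44 in EGFR loss, -0.61 to 0.27 in BMP gain, -0.67 to 0.11 in EGFR gain minus EGFR loss, -0.42 to 0.41 in EGFR gain minus BMP gain, -0.11 to 0.60 in EGFR loss minus BMP gain and -0.18 to 0.69 between the BMP responses. For gbb they ran from -0.86 to 0.093 in BMP loss, -0.46 to 1.24 in EGFR gain minus EGFR loss and -0.38 to 0.57 between the BMP responses. For tok they ran from -0.60 to 0.46 in EGFR gain, -0.34 to 0.73 in BMP gain and -1.03 to 0.033 between the BMP responses. For magu they ran from -0.049 to 0.25 in EGFR loss, and for cv-2 from -0.061 to 0.32 between the BMP responses.

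The titles number the replicates alike, but same-numbered arrays of a round did not deviate together (r of -0.02 to 0.09 over 21 pairs, 0 over 0.1), so the numbers were not taken as pairs. With the replicate block 0 genes were called in EGFR loss against wild type A in place of 1, with cv-2 at an adjusted p of 0.11, and the other 39 differences kept their side of the threshold. Of all 13966 probe sets the block called 251 in that comparison, in place of 443. The filter left tok out. No member has another probe set, so that alternative gave no value.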
